A study of Mus musculus with 8 samples.

Results

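The choroid plexus genes are 7 genes chosen by name because they mark the epithelium that secretes cerebrospinal fluid, namely Ttr, Folr1, Clic6, Aqp1, Kl, Enpp2 and Otx2. They were read in E12.5 mouse brain through every probe set annotated to them on Affymetrix whole-genome mouse arrays, where several short probes together form a probe set and a gene can have more than 1. For 6 of the 7 genes the annotation names at least 1 probe set, which gives 11 of the 45037 probe sets and 6 of the 18193 genes tested. No probe set is named for Enpp2, which is not analysed here.

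RNA came from brains of Cre+, Rest GTi/GTi embryos (4 arrays), the mutants hereafter, and of Rest GTi/GTi littermates without Cre, the controls (4 arrays), all on a C57/BL6 background at E12.5. Both genotypes are homozygous for an inverted gene trap in an intron of Rest, the gene of a repressor of neuronal genes. A Nestin Cre transgene, active in neural progenitors, turns the trap back and ends Rest transcription ahead of its coding exons. Every Cre+, Rest GTi/GTi embryo carried that transgene and no control did, so Cre and loss of REST cannot be told apart here. The labels call the arrays biological replicates, do not say whether an array holds 1 embryo or several, and do not say how choroid plexus or meninges were handled in the dissection. In RNA of a whole brain, fewer cells of a type and less RNA per cell cannot be told apart.

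The choroid plexus forms along the dorsal midline of the brain, from neuroepithelium next to the roof plate and the cortical hem, and is filled by a core of mesenchyme and vessels. At mid-gestation its epithelium begins to appear in the fourth and lateral ventricles. It moves ions and water into the ventricles and carries vitamins and hormones between blood and cerebrospinal fluid. Ttr encodes transthyretin, which carries thyroxine and retinol-binding protein, and Folr1 a receptor that takes up folate. Clic6 belongs to the chloride intracellular channels, Aqp1 is a water channel, and Kl encodes klotho, the co-receptor of FGF23. Otx2 encodes a homeodomain transcription factor of forebrain, midbrain and choroid plexus.

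The intensities were scaled to a common distribution over the 8 arrays, and 16 was added before taking log2, so that fold changes of dim probe sets come out smaller than their ratio of intensities. Array medians before scaling lay between 40.9 and 68 on the mutant arrays and between 44.5 and 60.9 on the controls. Rest itself, read by its brightest probe set, gave 84.4 to 216.7 on the mutant arrays and 170.1 to 271.8 on the controls, and 1 of the 4 mutant arrays, replicate 2, lay within the range of the controls while the other 3 lay below it. The signal of Xist and Eif2s3y was female on control replicates 2 and 3 and male on the other 6 arrays. Mutant replicates 1 and 2 stood apart by mesenchymal transcripts such as Col3a1, a collagen, which read 4864, 4571, 231.7 and 134.8 on mutant replicates 1 to 4 and 117.2, 412, 114.7 and 555 on control replicates 1 to 4.

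None of the 6 genes passed the test between the genotypes, and the arrays of the 2 genotypes overlapped for all 6. Of all 18193 genes, limma called 0.225% (41 genes) at a p under 0.05 adjusted over all probe sets (0.214% higher and 0.0110% lower in mutant brain), and every mutant array lay above every control for 2.48% of genes and below every control for 2.15%. With an unadjusted p under 0.05 there was 1 member, Aqp1, where the background over all genes was 6.97%, and the methods' t-test called 0 members, with equal variances or with unequal ones. The median log2 fold change of the 6 genes was 0.39, beside -0.0014 over all genes, with 5 genes above 0 and 1 below. Without mutant replicates 1 and 2 the median was -0.06.

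**Figure D1:**
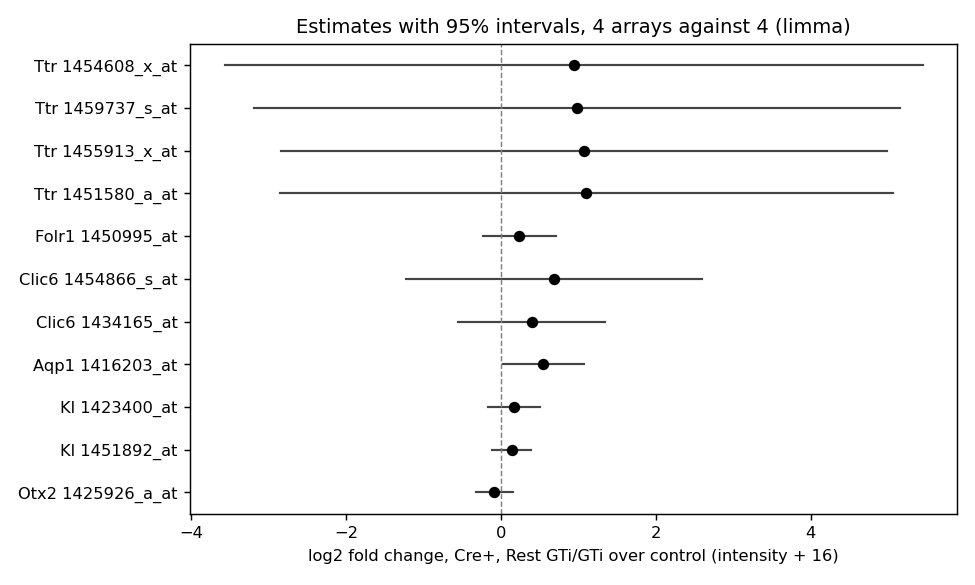
Log2 fold change of Cre+, Rest GTi/GTi over control brain for the 11 probe sets of 6 choroid plexus genes, on the scale of the intensity plus 16. Points are limma estimates from 4 arrays against 4 and bars their 95% intervals, which run from -3.56 to 5.44 for the brightest probe set of Ttr and from -0.32 to 0.15 for Otx2.

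Ttr split the arrays of each genotype. On its brightest probe set (1454608_x_at) the intensity was 4672, 5233, 34.6 and 22.3 on mutant replicates 1 to 4, and 34.3, 98.3, 196.4 and 2864 on control replicates 1 to 4. Thus mutant replicates 1 and 2 and control replicate 4 were high, and the other 5 arrays read at most 196.4. Among all probe sets of the same array, Ttr stood at the 98.7, 98.9, 42.6 and 35.8 percentile on the mutant arrays and at the 42.5, 58.5, 69 and 97.4 percentile on the controls. The highest array exceeded the lowest by 235 fold in intensity, and by 137 fold after the constant of 16 was added. The mutant mean was 2490 ± 2852 and the control mean 798 ± 1379 (SD, n = 4), so that each SD was larger than its mean. Its log2 fold change was 0.94 (standard error 1.97, 95% interval -3.56 to 5.44, adjusted p = 0.968 from limma, two-sided exact permutation p = 0.8), an interval that spans ratios from 0.0848 to 43.5.

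The other 3 probe sets of Ttr gave the same 3 arrays as the highest. The set 1459737_s_at read 3476, 3515, 26.9 and 30.5 on mutant replicates 1 to 4 and 30.8, 83.2, 155.3 and 2031 on control replicates 1 to 4. The set 1455913_x_at read 1968, 2391, 32.5 and 15.4 on the mutant arrays and 24.6, 51.5, 80.4 and 1388 on the controls. The set 1451580_a_at read 1368, 1314, 14.2 and 3.1 on the mutant arrays and 2.4, 24, 69.4 and 783.1 on the controls. On all 4 probe sets control replicate 3 came next after the 3 high arrays and control replicate 2 after it. Their log2 fold changes lay between 0.94 and 1.10, with standard errors between 1.71 and 1.97. The sign rested on single arrays: on the brightest probe set the log2 fold change was -0.16 without mutant replicate 1 and -0.22 without mutant replicate 2, and 2.13 without control replicate 4. Comparing only mutant replicates 3 and 4 with the 4 controls gave -2.46 (adjusted p = 0.882 from limma), and the fit with Eif2s3y as a covariate for sex gave 0.16.

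**Figure D2:**
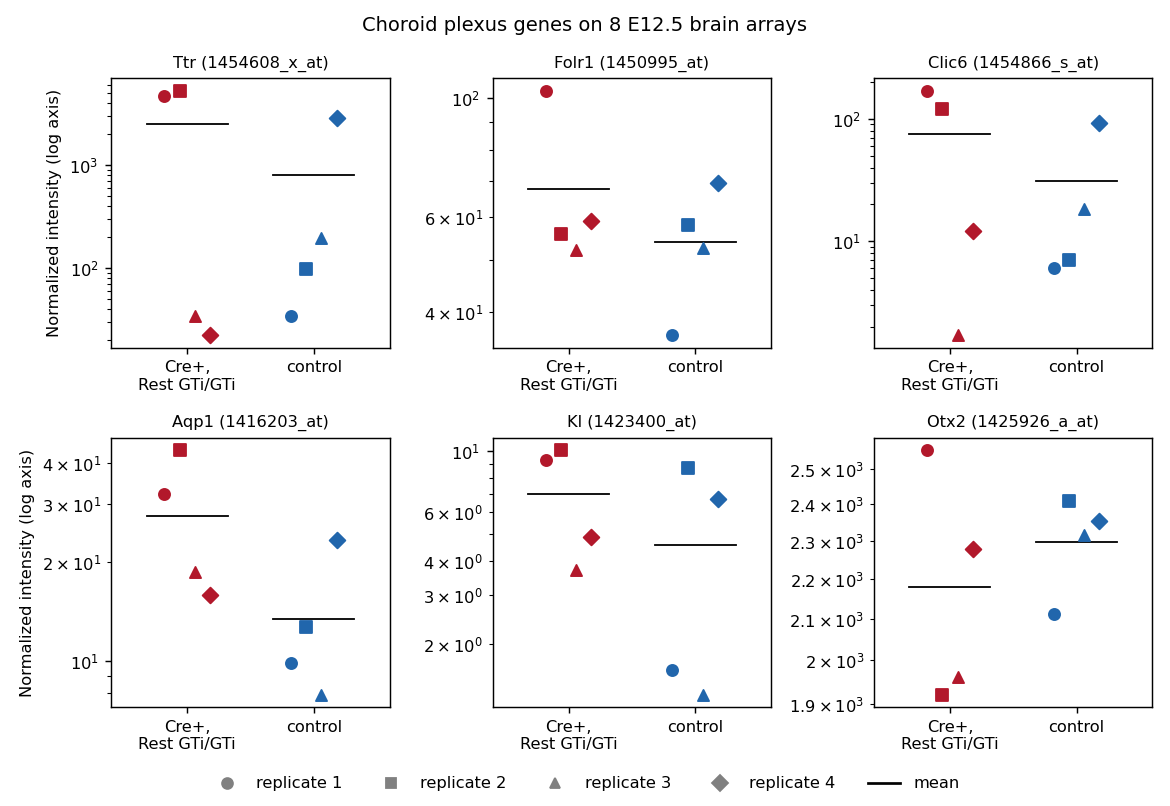
Normalized intensity, on log axes that differ between panels, of the brightest probe set of 6 choroid plexus genes on each array. Symbols mark the replicates of Cre+, Rest GTi/GTi (left) and control (right) brain and lines the mean of each genotype. Ttr and Clic6 are high on Cre+, Rest GTi/GTi replicates 1 and 2 and on control replicate 4, while Otx2 lies between 1921 and 2556 on every array.

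Clic6 was highest on the same 3 arrays. On its brighter probe set (1454866_s_at) it read 169.9, 119.6, 1.7 and 12.1 on mutant replicates 1 to 4 and 6, 7, 18.5 and 91.7 on control replicates 1 to 4. Its log2 fold change was 0.68 (standard error 0.84, 95% interval -1.23 to 2.59, adjusted p = 0.927 from limma, exact permutation p = 0.514), and without mutant replicates 1 and 2 it was -0.72. Its further probe set (1434165_at) read 111.2, 73.8, 17.8 and 26.6 on the mutant arrays and 22.1, 33.7, 25 and 53.7 on the controls, with a log2 fold change of 0.40 (standard error 0.42). Both probe sets named the same 3 arrays as highest, and after the constant of 16 was added the highest array exceeded the lowest by 10.5 fold on the first and 3.76 fold on the second.

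Aqp1 came closest to a difference between the genotypes. It read 32.1, 43.7, 18.7 and 15.9 on mutant replicates 1 to 4 and 9.9, 12.7, 7.9 and 23.3 on control replicates 1 to 4. Here mutant replicates 1 and 2 were highest, control replicate 4 came next, and mutant replicates 3 and 4 lay above the other 3 controls. Its log2 fold change was 0.55 (standard error 0.23, 95% interval 0.03 to 1.07, unadjusted p = 0.0414 and adjusted p = 0.71 from limma, exact permutation p = 0.114). It kept its sign in all 24 alternatives that gave a value, from 0.20 to 0.98, and no alternative called it. Aqp1 was dim, with a control mean of 13.4 ± 6.87 (SD, n = 4), below the added constant.

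Folr1 separated the arrays less. It read 103.1, 55.8, 52.2 and 59.1 on mutant replicates 1 to 4 and 36.2, 58.1, 52.5 and 69.4 on control replicates 1 to 4. Mutant replicate 1 was the highest and control replicate 4 the next, but mutant replicate 2, the highest array for Ttr, lay below control replicate 2. Its log2 fold change was 0.24 (standard error 0.21, 95% interval -0.24 to 0.71, adjusted p = 0.887 from limma, exact permutation p = 0.429). Kl was dim. Its brighter probe set (1423400_at) gave 9.3, 10.1, 3.7 and 4.9 on the mutant arrays and 1.6, 8.7, 1.3 and 6.7 on the controls, and its further set (1451892_at) gave at most 7.2 on any array, all below the constant of 16. Its log2 fold changes of 0.17 and 0.14 (standard errors 0.15 and 0.11) are therefore not readable as sizes.

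Otx2 was bright and nearly even over the arrays. Its 1 probe set read 2556, 1921, 1961 and 2278 on mutant replicates 1 to 4 and 2112, 2408, 2315 and 2354 on control replicates 1 to 4, which put it at the 95.6 to 97 percentile of every array. The mutant mean was 2179 ± 298 and the control mean 2297 ± 129 (SD, n = 4). Its log2 fold change was -0.08 (standard error 0.10, 95% interval -0.32 to 0.15, adjusted p = 0.929 from limma, exact permutation p = 0.429), an interval that spans ratios from 0.800 to 1.11. The 3 arrays highest in Ttr held both the highest Otx2 value and the lowest, on mutant replicates 1 and 2. Hoxb3, a gene of hindbrain and spinal cord, read 1.8, 178.7, 746 and 434.5 on mutant replicates 1 to 4 and 172.6, 6.9, 9.3 and 12.8 on control replicates 1 to 4. The 4 lowest Otx2 values, on mutant replicates 2, 3 and 4 and control replicate 1, came from the 4 arrays with a Hoxb3 intensity of at least 172.6. The part of hindbrain content in the level of Otx2 was not tested.

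**Figure D3:**
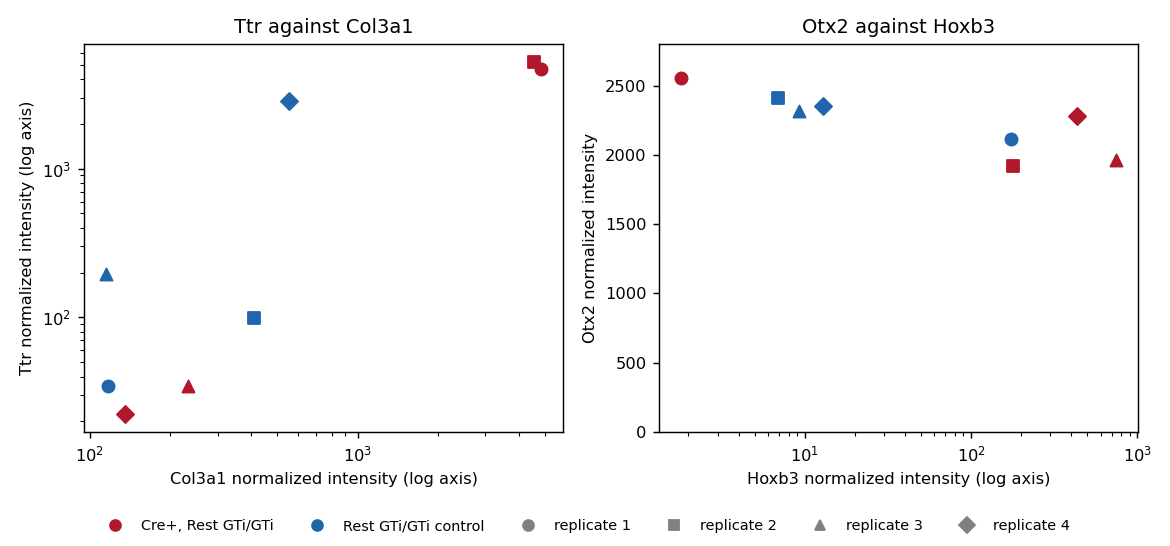
Normalized intensity of Ttr against Col3a1 (left, both on log axes) and of Otx2 against Hoxb3 (right, log axis for Hoxb3 only) on the 4 Cre+, Rest GTi/GTi and 4 control arrays, 1 point per array. Control replicate 4 has 2864 for Ttr at 555 for Col3a1, and Otx2 is lowest on Cre+, Rest GTi/GTi replicates 2 and 3, where it reads 1921 and 1961.

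The promoters of Aqp1, which followed Ttr in part, and of Otx2, which did not, are shown from RefSeq (GRCm38.p6). Windows of 3 of the 7 genes (Kl, Aqp1 and Otx2) were used here. Each window holds 300 bases, from 250 before to 50 after the start of the transcript. The letters TAATCC, the core bound by OTX proteins, were searched on both strands (GGATTA on the other), and capitals mark a match. The motif was in 7.06% of 32851 windows of all genes, in none of those of Aqp1 and Kl, and in 1 of the 4 of Otx2, 211 bases before the start.
Aqp1, chr6:55336049-55336348, plus strand: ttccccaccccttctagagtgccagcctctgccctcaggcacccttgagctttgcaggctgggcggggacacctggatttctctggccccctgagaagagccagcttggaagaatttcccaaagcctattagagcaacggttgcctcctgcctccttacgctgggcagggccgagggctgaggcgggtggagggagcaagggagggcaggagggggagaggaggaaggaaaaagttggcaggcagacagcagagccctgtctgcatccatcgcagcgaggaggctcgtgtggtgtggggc
Otx2, chr14:48665060-48665359, minus strand: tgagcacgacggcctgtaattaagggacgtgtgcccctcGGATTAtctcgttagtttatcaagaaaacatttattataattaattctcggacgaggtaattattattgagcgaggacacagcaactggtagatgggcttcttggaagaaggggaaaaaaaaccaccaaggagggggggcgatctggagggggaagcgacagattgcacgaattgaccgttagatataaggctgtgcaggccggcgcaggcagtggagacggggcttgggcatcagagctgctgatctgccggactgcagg
A match of 6 letters is a description of the sequence and shows no binding.

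Other genes of choroid plexus epithelium also split by array, and none was called between the genotypes. Of 25 listed, 23 were measured, and limma called 0. The methods' t-test also called 0, while 2 had a limma p under 0.05 before adjustment. The median log2 fold change was 0.21, with 18 genes above 0 and 5 below. For 10 of the 23, the 3 highest arrays were mutant replicates 1 and 2 and control replicate 4, as for Ttr, which held for 3.12% of all genes. This count was made after the values of Ttr were seen. The 10 were Kcne2, Kcnj13, Calml4, Sostdc1, Wfikkn2, Igf2, Car12, Htr2c, Krt8 and Krt18.

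Kcne2, a potassium channel subunit of the apical membrane, was close to 0 on the 5 arrays with low Ttr. It read 37.5, 40.2, 0.9 and 1.3 on mutant replicates 1 to 4 and 0.6, 0.8, 0.6 and 22.4 on control replicates 1 to 4 (log2 fold change 0.58, standard error 0.49). Kcnj13, an inward rectifier potassium channel, read 54.5, 40.1, 2.9 and 16.2 on the mutant arrays and 11, 17.3, 20.4 and 41 on the controls, and Calml4, a calmodulin-like protein, 45.6, 35, 7 and 13.9 on the mutant arrays and 16, 12.7, 9.4 and 25.2 on the controls. On the 5 arrays where Ttr was low, these 3 genes read at most 20.4.
Sostdc1, a secreted antagonist of BMP and Wnt signals, read 95.1, 129.3, 21.4 and 21.7 on mutant replicates 1 to 4 and 20.6, 8.9, 24.1 and 51.7 on control replicates 1 to 4 (log2 fold change 0.80, standard error 0.50). Htr2c, a serotonin receptor of this epithelium, read 104.6, 57.2, 36.6 and 28.9 on the mutant arrays and 34.5, 16, 12.7 and 38 on the controls (log2 fold change 0.76, standard error 0.33, unadjusted p = 0.049 and adjusted p = 0.725 from limma). Trpm3, a cation channel, was the other gene under 0.05 before adjustment, with 110.3, 81.1, 57.3 and 63.3 on the mutant arrays and 46.1, 45.7, 41.7 and 57.5 on the controls (log2 fold change 0.53, standard error 0.17, adjusted p = 0.591 from limma). For Trpm3, 3 of the 4 mutant arrays lay above the highest control.

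The 3 high arrays differed from each other more in some genes than in others. The intensity of Ttr on mutant replicates 1 and 2 was 1.63 and 1.83 times that on control replicate 4, and the ratios were 1.68 and 1.80 for Kcne2, 1.85 and 1.30 for Clic6 and 1.81 and 1.39 for Calml4. They were 1.33 and 0.98 for Kcnj13, 1.84 and 2.50 for Sostdc1 and 2.75 and 1.51 for Htr2c, so the choroid plexus genes did not share a common ratio. For Igf2, a growth factor made by mesenchyme as well as choroid plexus, the same ratios were 4.19 and 6.03, with 2160, 3108, 435.6 and 422.8 on the mutant arrays and 387, 390.5, 387.1 and 515.7 on the controls. For Krt18, a keratin of simple epithelia, they were 2.00 and 4.60, and for Col3a1 8.76 and 8.24. Each ratio compares single arrays and has no replicate. Not all listed genes followed these arrays: Slc29a4, a monoamine transporter, read 682.3 to 854.9 on mutant and 752.4 to 835.8 on control arrays, and Slc31a1, a copper transporter, 315.2 to 388.7 on mutant and 316.9 to 362.5 on control arrays. Tmem72, Slc13a4 and Slc16a8 stayed below the constant of 16 on every array.

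**Figure D4:**
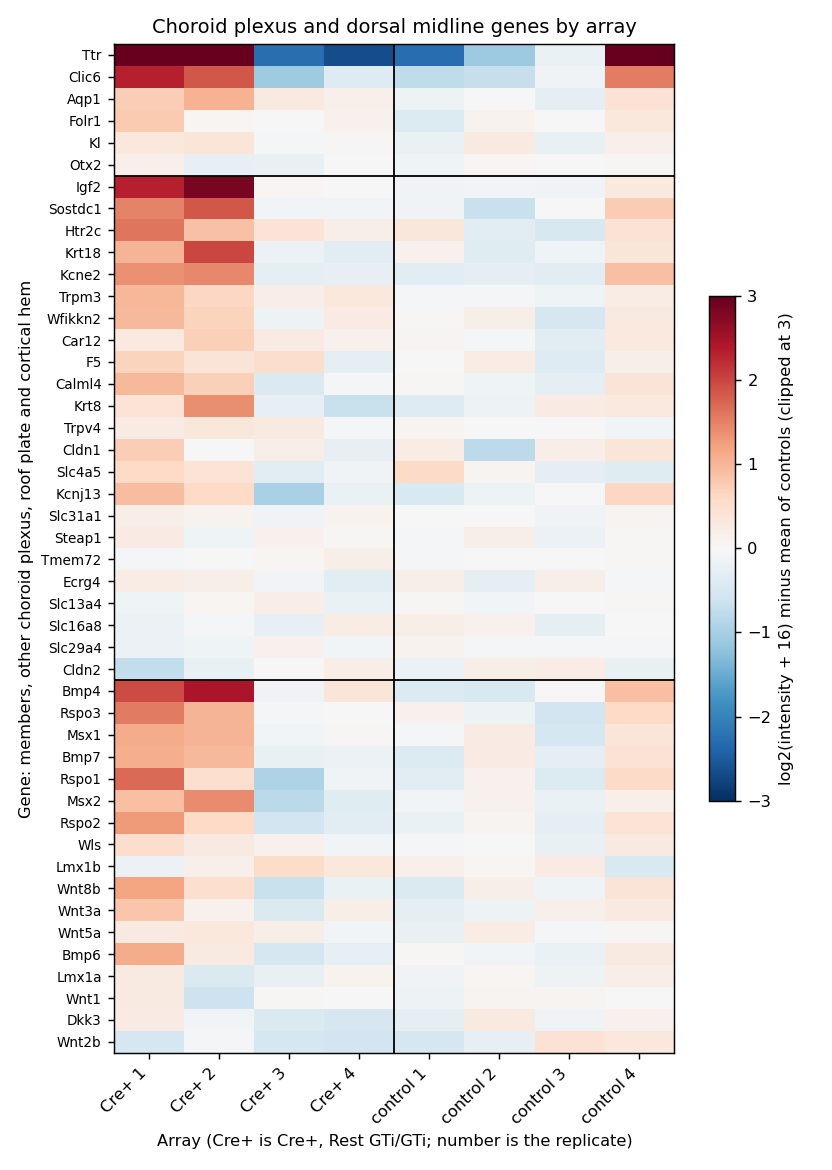
Colour shows log2 of the normalized intensity plus 16, minus the mean of the 4 controls, for 6 member genes, 23 other choroid plexus genes and 17 genes of roof plate and cortical hem (rows, clipped at 3) on the 4 Cre+, Rest GTi/GTi and 4 control arrays (columns). Red columns recur on Cre+, Rest GTi/GTi replicates 1 and 2 and, more weakly, on control replicate 4, where Ttr read 4672, 5233 and 2864.

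Genes of the roof plate and cortical hem, the signalling tissue beside the forming plexus, were in part high on the same arrays. Of 18 listed genes 17 were measured (Gdf7 was not), limma and the methods' t-test called 0, 0 had a limma p under 0.05 before adjustment, and the median log2 fold change was 0.21. For 10 of the 17, the 3 highest arrays were those of Ttr, against 3.12% of all genes. This count too was made after the values of Ttr were seen, so it only describes the arrays. Rspo2, which encodes an R-spondin that strengthens Wnt signals, read 716.7, 443.2, 186.4 and 222 on mutant replicates 1 to 4 and 248.6, 301.1, 229.3 and 387.3 on control replicates 1 to 4. Rspo1 and Rspo3, of the same family, and Wnt8b, a Wnt ligand of the hem, had log2 fold changes of 0.29, 0.63 and 0.20 (standard errors 0.51, 0.40 and 0.38). Bmp4, a BMP ligand of the dorsal midline, read 119.9, 175.6, 16.8 and 29.3 on the mutant arrays and 10.4, 9.6, 18.9 and 49.7 on the controls (log2 fold change 1.16, standard error 0.58, adjusted p = 0.77 from limma). The homeobox gene Msx1, a target of BMP signals, read 276.5, 261.1, 112.1 and 123 on the mutant arrays and 114.1, 144.1, 78.4 and 158.4 on the controls. Lmx1a, which specifies the roof plate, did not follow these arrays, with 45.7, 22.1, 27.7 and 39.2 on the mutant arrays and 31.6, 37.2, 30 and 42.7 on the controls. The smallest unadjusted p values of the list belonged to Bmp4, Wnt2b (log2 fold change -0.42, standard error 0.23) and Msx1 (0.52, standard error 0.32).

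Choroid plexus cells carry several cilia, and 19 of 23 listed genes of such cells were measured. Limma called 1, Cfap43, a protein of the ciliary axoneme, which was lower in mutant brain, and the methods' t-test called 0. Over all genes 0.0110% were called lower, and for 2.15% every mutant array lay below every control. Cfap43 read 2.1, 2.4, 0.9 and 1.8 on mutant replicates 1 to 4 and 16.4, 9.4, 11.4 and 17.3 on control replicates 1 to 4, so that the genotypes did not overlap but no value exceeded 17.3, close to the constant of 16 (log2 fold change -0.73, standard error 0.10, adjusted p = 0.0448 from limma). Of the 19 genes, 12 lay above 0 and 7 below, around a median of 0.06. Ccno, a cyclin-like protein that starts the making of many centrioles, had the 3 highest arrays of Ttr and read 101.4, 44.9, 26 and 31.2 on the mutant arrays and 16.6, 19.2, 31.8 and 61.5 on the controls. So did Deup1, which builds the structures from which these centrioles arise (57.2, 38.6, 2.1 and 29.9 on the mutant arrays, 4.6, 14.8, 8.9 and 32.4 on the controls), and Dynlrb2, a dynein light chain. Foxj1, the transcription factor of motile cilia, gave 63.6 to 83.2 on mutant arrays and 62.5 to 98.9 on controls. The smallest p values after Cfap43 were those of Rsph1 (log2 fold change 0.33, standard error 0.17) and Ccdc153 (-0.18, standard error 0.10).

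Of the partners of the 7 genes none was called. Among 7 measured genes of thyroid hormone and retinol transport the log2 fold changes ran from -0.11 to 0.29, with Slco1c1, a thyroxine transporter, at 0.29 (standard error 0.19) and Crym, a protein that binds thyroid hormone, at 0.21 (standard error 0.19), and 0 had an unadjusted p under 0.05. Only Crym of these 7 had the 3 highest arrays of Ttr. Among 9 genes of folate handling the changes ran from -0.22 for Tyms to 0.24 for Folr2, again with 0 under 0.05 before adjustment. Tyms makes thymidylate and Folr2 is a further folate receptor.
Enpp2 itself was not read, but Lpar1, a receptor for lysophosphatidic acid, the lipid that its enzyme makes, read 216.9, 242.5, 157.3 and 177.3 on mutant replicates 1 to 4 and 144.9, 100, 142.6 and 127.7 on control replicates 1 to 4. Every mutant array lay above every control, as for 2.48% of all genes, but the gene did not pass (log2 fold change 0.56, standard error 0.15, adjusted p = 0.479 from limma). Plpp1, a phosphatase that degrades lysophosphatidic acid, gave 0.23 (standard error 0.09, unadjusted p = 0.0257 and adjusted p = 0.674 from limma), and the other 6 measured genes of this list lay above 0.05 before adjustment.
The FGF receptors and Klb, partners and paralogue of Kl, ran from -0.37 (Fgfr4) to 0.14 (Fgfr1). Among 10 other aquaporins the single gene under 0.05 before adjustment was Aqp9 (-0.38, standard error 0.15), a channel for water and glycerol with intensities of at most 12.6. Among 4 other chloride intracellular channels it was Clic5 (-0.36, standard error 0.12), with 11.3 to 15.1 on mutant and 13.4 to 25.2 on control arrays. The methods' t-test called 0 genes in each of these 6 lists, whose median log2 fold changes lay between -0.08 and 0.09.

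Markers of other tissues that express some of these genes were read beside them. Mesenchyme and meninges (14 of 14 genes measured) had a summed intensity of 698 to 15382 on mutant arrays and 654 to 1546 on controls. Set against the control mean, its mean log2 level was 2.09, 3.38, -0.08 and -0.35 on mutant replicates 1 to 4 and -0.36, 0.29, -0.28 and 0.36 on control replicates 1 to 4, and the level of the 6 choroid plexus genes was 1.43, 1.25, -0.56 and -0.46 on the mutant arrays and -0.65, -0.22, -0.13 and 1.01 on the controls. Control replicate 4 was thus near the mutant replicates 1 and 2 for these 6 genes and near the other controls for mesenchyme. Without Ttr, the level of the other 5 genes was 0.86, 0.62, -0.22 and -0.02 on the mutant arrays and -0.33, -0.05, -0.12 and 0.50 on the controls. The level of the 23 other choroid plexus genes was 0.609, 0.639, -0.03 and -0.054 on the mutant arrays and 0.015, -0.11, -0.118 and 0.213 on the controls. For that list control replicate 4 lay nearer the other controls than mutant replicates 1 and 2. Endothelium (11 of 11 genes), where Aqp1 is also found, summed to 1300 to 2271 on mutant arrays and 1176 to 1353 on controls, with its marker Cdh5 at 187, 175.2, 78.8 and 68.3 on the mutant arrays and 71.1, 94.5, 59.7 and 97.1 on the controls. All 11 lay above 0, around a median log2 fold change of 0.37. Cldn5, with the smallest p of this list, read 305, 278.8, 278.3 and 260.5 on the mutant arrays and 234.6, 241.1, 217.9 and 203.4 on the controls. For Cldn5 every mutant array lay above every control, as for 2.48% of all genes, and it was not called (adjusted p = 0.441 from limma). Of the mesenchyme and endothelium genes, 6 of 14 and 4 of 11 had the 3 highest arrays of Ttr, as did 3.12% of all genes. These counts were also made after the values of Ttr were seen. The part of mesenchyme and vessels in the members' levels was not tested.

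Liver and the pigment epithelium of the eye are other sources of Ttr. The summed intensity of 12 measured genes of liver and yolk sac was 82.3 to 116 on mutant arrays and 108 to 125 on controls, with Alb at most 15.2, and Alb, Afp, Fga, Fgb, Fgg and Ahsg below 16 on every array. Apoa2 was above 16 on every array, and Apoa1 and Apob were above it on some. No gene of the liver list exceeded 45.2 on any array. The 15 genes of retinal pigment epithelium summed to 301 to 415 on mutant arrays and 295 to 431 on controls, with Rpe65, Tyr, Tyrp1 and Mlana below 16 on every array. Other genes of this list were not dim: Dct, an enzyme of melanin synthesis, read 27.4 to 120.2 on mutant arrays and 32.1 to 98.7 on controls, Rlbp1, a retinal-binding protein, 73.3 to 94.3 on mutant arrays and 87.8 to 115.5 on controls, and Rdh5, a retinol dehydrogenase, 29.9 to 61.9 on mutant arrays and 34.8 to 70.2 on controls. Mitf, a transcription factor of pigment cells, read 83, 65.2, 48.2 and 42.3 on mutant replicates 1 to 4 and 36.9, 42.5, 50 and 43.7 on control replicates 1 to 4. The part of liver or pigment epithelium in the level of Ttr was not tested. Erythroid genes (10 of 12 measured), since red cells carry Aqp1, summed to 22327 to 33576 on mutant arrays and 22417 to 28106 on controls. Alas2, the first enzyme of heme synthesis in red cells, was highest on mutant replicate 1 (455, with 94.9 to 184.3 on the other 7 arrays). The hindbrain Hox genes (10 of 11 measured) had a mean log2 level of -0.43, 0.53, 2.06 and 1.09 on mutant replicates 1 to 4 and 0.58, -0.25, -0.27 and -0.06 on control replicates 1 to 4, which is not the order of Ttr. Regional genes of forebrain (8 of 10 measured) summed to 5542 to 6913 on mutant arrays and 6967 to 7547 on controls, and those of midbrain (10 of 10) to 2666 to 3399 on mutant arrays and 3136 to 3618 on controls. In the forebrain list 7 genes lay below 0 and 1 above, around a median log2 fold change of -0.15. Dlx1 had means of 1126 on mutant and 1821 on control arrays, Dlx2 940 and 1401, and Emx1 140 and 88.3. En1 of the midbrain read 81 to 146.6 on mutant arrays and 82.4 to 120 on controls. Limma called 0 genes in all 8 of these marker lists, as did the methods' t-test. An unadjusted p under 0.05 was found for 3 endothelial, 3 forebrain and 2 midbrain genes, for 1 gene each of mesenchyme and pigment epithelium, and for 0 of the other 3 lists.

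**Figure D5:**
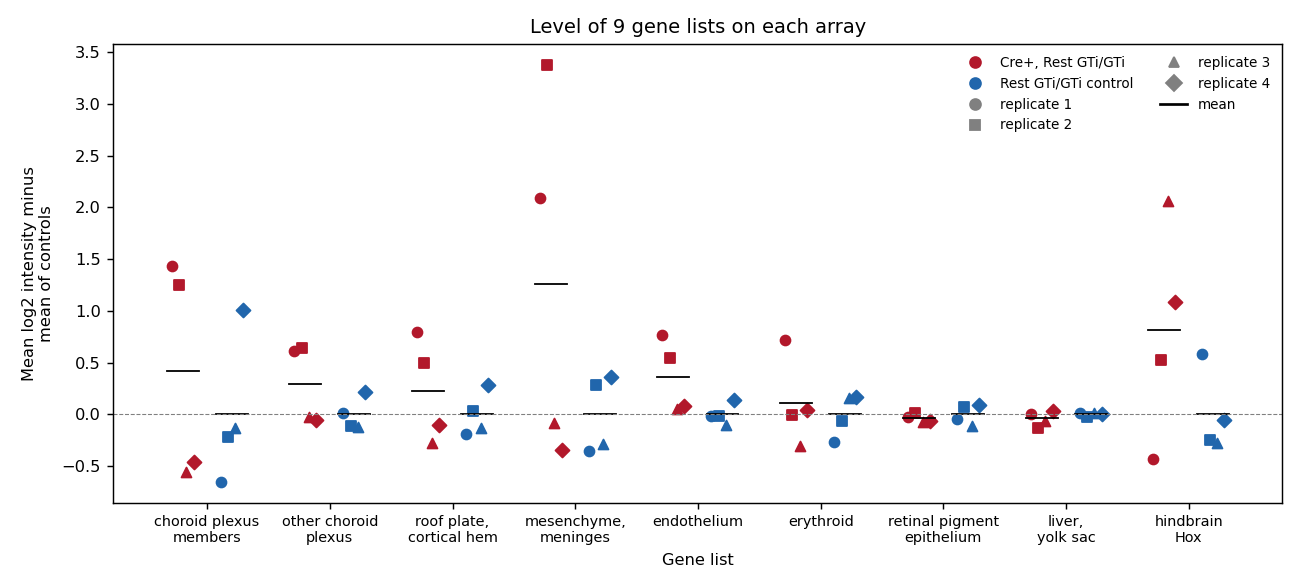
Level of 9 gene lists (log2 intensity averaged over the genes of a list, minus its control mean), with a symbol for each array, Cre+, Rest GTi/GTi to the left of control, and a line for the average of a genotype. Choroid plexus members are near 1 or above on Cre+, Rest GTi/GTi replicates 1 and 2 (1.43 and 1.25) and control replicate 4 (1.01), mesenchyme reaches 3.38, and the levels of liver and pigment epithelium differ little from their control means.

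Among 831 genes with a mean intensity of at least 50 and an SD of at least 0.3 on the log2 scale, Clic6 had the highest Pearson's r with Ttr (0.97 over the 8 arrays, 0.975 for deviations from the genotype means, Spearman's rho = 0.81). Its mean reached 50 through its 3 high arrays. Next by r came Smad6, an inhibitor of BMP signals (0.96), Itga8, an integrin subunit (0.96), Ezr, which ties epithelial microvilli to actin (0.93), and Adamts1, a secreted protease (0.93). Among these 5, Itga8 was higher than Clic6 by deviations (0.979), and Smad6 and Itga8 were higher by rho (0.905 and 0.857). Itga8 too reached a mean of 50 only through the 3 arrays high in Ttr, with at most 45.6 on the low ones. Smad6 read 125.5, 117.3, 56.1 and 43.6 on mutant replicates 1 to 4 and 48.8, 63.3, 50.5 and 101.6 on control replicates 1 to 4, and Ezr 727, 740.8, 439.5 and 460.8 on the mutant arrays and 419.7, 511.6, 428.2 and 621.6 on the controls. All 8 points share 2 genotypes and fall into 3 high and 5 low arrays, so these values describe that split and carry no p. Of the members, Aqp1, Kl and Folr1 had r = 0.79, 0.67 and 0.65 with Ttr, and Otx2 0.18. With the collagen Col3a1 these genes had r = 0.91, 0.85, 0.67 and 0.06 in the same order, and Ttr had 0.87. Their likeness is therefore not particular to Ttr. Most like Otx2 were Abcc4, an efflux transporter (r = 0.88), Gpr108 (0.82), Otx2os1, transcribed from the opposite strand of the Otx2 locus (0.81), the transcription factor Dbx1 (0.81) and the centromere protein Oip5 (0.80). Otx2os1 read 103.9, 70, 47.2 and 98.8 on the mutant arrays and 69.1, 89.6, 109.8 and 82.5 on the controls.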

How the data were processed

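Total RNA of E12.5 mouse brain was hybridised to Affymetrix whole-genome mouse arrays, 4 for Cre+, Rest GTi/GTi and 4 for control brain. The values that the authors deposited are intensities on a linear scale that start near 0 and whose medians differ between arrays. The study's methods name RMA normalization with AffyPLM, log2 values and, for the comparison, a t-test adjusted after Benjamini and Hochberg, and the deposited intensities are not on that log2 scale, so how they were background-corrected and scaled before deposit is not known.

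The Affymetrix controls, 64 of 45101 probe sets, were not used. The intensities of the other 45037 were quantile normalized, 16 was added before log2, and limma (version 3.58.1 in R 4.3.3; lmFit and eBayes on the 8 arrays, no covariate) was fitted over all probe sets, with Benjamini-Hochberg adjustment and a call at an adjusted p of 0.05. Of all probe sets 30.6% had a mean below that constant. GEO's platform table, which can be old, gives a single gene to 34945 of them, several to 932 and no gene to 9160. Each of 18193 genes was represented by its brightest probe set, with the p adjusted over all probe sets tested. Probe sets whose names end in _x_at, _s_at or _a_at can hybridise with more than 1 transcript, which holds for the probe sets of Ttr and Otx2 and for the brighter one of Clic6. Exact tests were two-sided permutations over the 70 splits of 8 arrays, with a smallest possible p of 0.0286. The scripts were tested on simulated data.

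The members and the gene lists were chosen with earlier results of these data known. Named are the members, any called gene and up to 3 genes of the smallest p in each list of related genes, the 5 genes most like Ttr and Otx2, and defining markers of other tissues. The other genes named with values, among them Kcne2, Kcnj13, Calml4, Igf2, Krt18, Slc29a4, Slc31a1, Lmx1a, Rspo1 to Rspo3, Wnt8b, Ccno, Deup1, Dynlrb2, Cldn5, Dct, Rlbp1, Rdh5, Mitf, Dlx1, Dlx2 and Emx1, were chosen after their values were seen. The p-values measure the spread between these samples, and the number of arrays limits the precision. The result was recomputed under 25 alternatives of scaling, constant, filter, probe set, test, covariate and arrays, of which 1, the brightest probe set other than _x_at and _s_at ones, was added after seeing the data. The alternative without _x_at, _s_at and _a_at probe sets leaves none for Ttr and Otx2, and the filter on dim probe sets leaves out Aqp1 and Kl. That filter also keeps only 4 of the 23 other choroid plexus genes.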

Additional observations from a re-analysis of the deposited data

Results flagged for a closer look

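On the log2 scale after the constant was added, none of the 6 choroid plexus genes had an array far from the rest of its genotype by Dixon's test at the 95% level. On linear intensities control replicate 4 passed the critical value for the 4 probe sets of Ttr (gap over range 0.914 to 0.959) and the brighter one of Clic6 (0.855), and Cre+, Rest GTi/GTi replicate 1 for Folr1 (0.865). Over 95 probe sets (the members, other genes given with values, and up to 3 genes of smallest p in each list), 13 of 190 groups of 4 arrays passed on the log2 scale (6.84%), where chance flags about 1 in 20. The remaining genes of the lists were not examined. On Cre+, Rest GTi/GTi replicate 2, Wnt2b read 10.7 (the other 3 arrays of that genotype 2.5 to 3.3) and Slc45a2 10.6 (1.6 to 2.8), and on replicate 4 Ccdc153 read 2.1 (1 to 1.1). Control replicate 1 stood apart by Hoxb3 at 172.6 (the other 3 controls 6.9 to 12.8), Tal2 at 357.9 (514.2 to 521.6), Slc29a4 at 835.8 (752.4 to 756.4) and Tyr at 2 (11.9 to 13.6). Control replicate 4 stood apart by Kcne2 at 22.4 (0.57 to 0.79), Igf2 at 515.7 (387 to 390.5), Adamts1 at 114.8 (77.5 to 79.6) and Clic5 at 13.4 (24.1 to 25.2). Control replicate 3 stood apart by Fgfr1 at 462.3 (536.6 to 545.4) and Hoxc4 at 2.4 (0.68 to 0.9). Wnt2b, Slc45a2, Ccdc153, Tyr and Hoxc4 were below or near the added constant of 16 on these arrays. Clic5 was below it on control replicate 4, and Kcne2 and Hoxb3 on the other 3 controls.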

How the results depend on the processing

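The count of choroid plexus genes called was 0 in all 25 alternatives, as was that of the 23 other choroid plexus genes. The filter on dim probe sets left 4 of those 23, and the alternative without _x_at, _s_at and _a_at probe sets left 21. The median log2 fold change of the members, 0.39, ranged from 0.086 to 0.52 over the fits without 1 array each. It was -0.061 with Cre+, Rest GTi/GTi replicates 3 and 4 only, where Ttr was at -2.46, Clic6 at -0.72 and Kl at -0.0046. It was 0.71 with a constant of 1 and 0.22 with a constant of 50. With Eif2s3y as a covariate, which separates the 2 female controls, the median was 0.21, Ttr 0.16 and Clic6 0.23, and with the 2 male controls only Ttr was 0.29 and Clic6 0.29. Without Cre+, Rest GTi/GTi replicate 1 or 2, Ttr was at -0.16 and -0.22, and over all fits without 1 array it ranged from -0.22 to 2.14. Folr1 (0.05 to 0.34), Aqp1 (0.20 to 0.98) and Otx2 (-0.16 to -0.03) kept their sign in every alternative that gave a value. The cause of the reversals was not tested.

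The 41 calls over all genes became 14 and 0 with the methods' t-test with equal variances and the Welch correction, 2 without scaling, 26 with a constant of 1, 14 with Eif2s3y as a covariate, 5 with the 2 male controls, 0 with Cre+, Rest GTi/GTi replicates 3 and 4 only, and 21 to 31 without 1 array. With the replicate number as a block, 0 genes were called. Residuals of arrays with the same number correlated at -0.28 to -0.02, and 0 of 8 arrays correlated best with its own number. These values show no pairing by number but cannot exclude it, since other differences between the arrays could hide it. Signal near or below the constant limits Kl, Aqp1 and 8 of the 23 other choroid plexus genes.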
